A study of Mus musculus with 64 samples.

Results

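Libraries from the striatum of 16 mice were ranked by Acta2, the smooth muscle actin transcript, and the 5 with the most were compared with the 5 with the least across all other genes. The remaining 6 stood between them and entered neither group. The groups were chosen by Acta2 alone, so its levels are a description, and the groups are not ones the study set out to compare. The study asked how loss of Csnk1e, a casein kinase that acts on the circadian clock, alters striatal transcripts in untreated mice. All mice were about 50 days old, and punches from both hemispheres were pooled per mouse, so each library is 1 mouse. The labels state neither sex nor strain, nor which stretch of Csnk1e was deleted. The high-Acta2 group held 4 libraries labelled Csnk1e knockout and 1 labelled wild type, and the low-Acta2 group held 1 labelled knockout and 4 labelled wild type.

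Acta2 encodes the actin isoform that vascular smooth muscle assembles with smooth muscle myosin to narrow arterioles. In the brain its transcript marks arterial and arteriolar smooth muscle, while the pericytes that line capillaries carry little of it. Smooth muscle contractile genes are known targets of serum response factor (SRF) and its partner myocardin, which act through a DNA sequence named the CArG box. Larger vessels that enter the brain bring fibroblasts and perivascular macrophages with them, and the overlying meninges hold many of both. In bulk tissue, fewer cells of a type and less RNA per cell cannot be told apart, so every level below is a share of transcripts.

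Acta2 stood at 13.7 CPM (reads of the gene scaled to a common total of gene reads) in knockout 5, 12.9 in knockout 1, 12.7 in knockout 4, 12.04 in wild type 7 and 11.4 in knockout 7. In the low group it stood at 9.06 CPM in wild type 2, 8.70 in knockout 3, 8.27 in wild type 6, 7.11 in wild type 8 and 5.53 in wild type 4. The means were 12.5 ± 0.878 CPM and 7.74 ± 1.44 CPM (SD, n = 5 each), a 1.62-fold ratio. Just outside the groups, knockout 6 held 11.1 CPM and wild type 5 held 9.76 CPM. The values rest on 137 to 354 Acta2 reads per library. Knockout 7 had an exact 95% Poisson interval of 10.1 to 12.7 CPM and knockout 6 one of 9.87 to 12.5 CPM, so counting error alone does not separate the last library inside the high group from the first outside it. The same holds for wild type 2, with 7.98 to 10.2 CPM, and wild type 5, with 8.67 to 10.9 CPM. Such intervals cover counting error only.

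**Figure D1:**
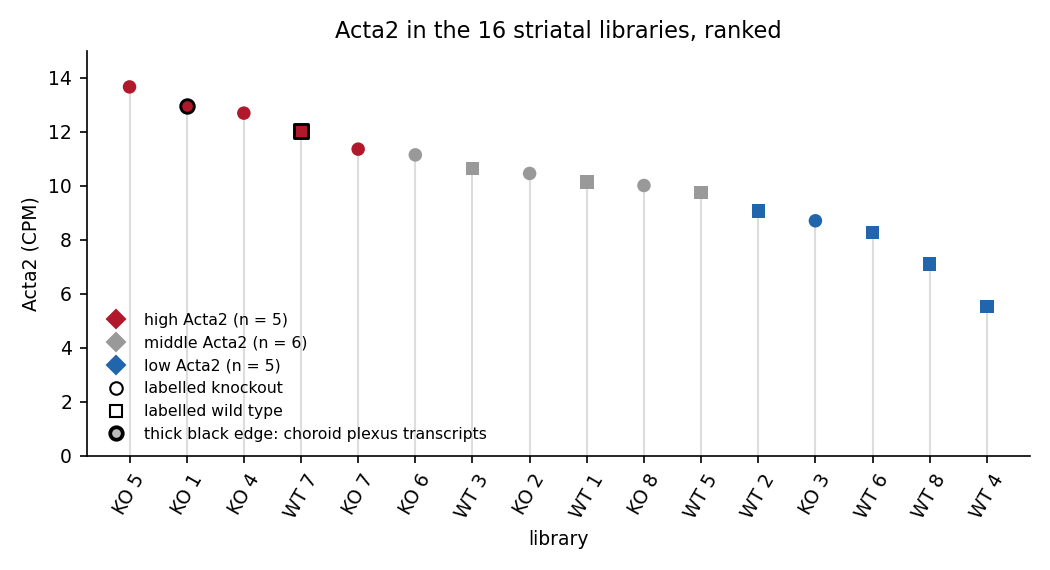
Acta2 in CPM in each of the 16 libraries, ranked from left to right. KO and WT are the labelled genotypes, colour marks the high, middle and low groups and thick black edges mark the 2 libraries rich in choroid plexus transcripts. The ranking runs from 13.7 CPM in knockout 5 to 5.53 CPM in wild type 4. At the edges of the middle group it steps from 11.4 to 11.1 CPM and from 9.76 to 9.06 CPM. Larger steps lie inside the low group.

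Some features of the libraries moved with the ranking and others did not. The share of reads that fell in no gene was 18.6% to 19.7% in the high group and 18.03% to 18.6% in the low group, overlapping only through knockout 7 (18.580%) and wild type 2 (18.584%), and its part in the results was not tested. Gene reads overlapped, and ran from 23482817 to 28176196 in the high group and from 22498835 to 28254079 in the low group. Knockout 1 and wild type 7, both in the high group, held 1472 and 2149 CPM of Ttr, the transthyretin transcript of the choroid plexus, and the highest of the other 14 libraries held 121 CPM. Summed over the 11 choroid plexus genes on the list, of which 8 were tested, the high group ran from 15.9 to 2435 CPM. The low group ran from 13.6 to 95.4 CPM. All 8 tested genes were higher at an unadjusted p under 0.05, beside 4.35% of all genes, with a median log2 difference of 3.62. It was -0.08 without knockout 1 and wild type 7, so contrasts are also given without them. Csnk1e itself did not follow its labels. It spanned 45.0 to 79.6 CPM in the high group and 42.4 to 86.0 CPM in the low group, where knockout 3, labelled knockout, held 77.2 CPM. Fisher's exact test did not call the split of the labels over the groups (two-sided exact p = 0.206). The split leaned the same way at other group sizes. With 6 per group, 5 high and 1 low library were labelled knockout (same test, p = 0.0801). With 8 per group it was 6 and 2 (p = 0.132), and with 4 per group 3 and 1 (p = 0.486). So few libraries cannot show that label and Acta2 group are unrelated, and slopes within each label are given below. By Xist, each group held 2 female and 3 male libraries, and knockout 3 carried 1154 CPM of Xist beside 6.96 CPM of the Y-linked Ddx3y.

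The following stretches are shown because they hold the CArG-like letters of the gene that set the ranking and of the contractile genes with an exact match near their start. A CArG box is 2 C, 6 letters that are A or T, and 2 G. Searched on both strands in the 250 bases before the start used for each RefSeq gene (GRCm38.p6), it occurred exactly in 1.62% of 27025 genes. With up to 1 of the 6 inner letters off, the share was 9.78%. Capitals mark the boxes. Both Acta2 boxes lay inside the gene as GENCODE M21 draws it (chr19:34241090-34255590, minus strand), at chr19:34255438-34255467 and chr19:34255388-34255417, and were 1 letter off. The Myl9 stretch at chr2:156775214-156775407 on the plus strand held an exact box and a second box 1 letter off, and the Filip1l stretch at chr16:57549170-57549199 on the plus strand held an exact box.
Acta2, upstream box: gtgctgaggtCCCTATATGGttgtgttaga
Acta2, box nearer the start: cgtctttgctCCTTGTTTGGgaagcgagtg
Myl9: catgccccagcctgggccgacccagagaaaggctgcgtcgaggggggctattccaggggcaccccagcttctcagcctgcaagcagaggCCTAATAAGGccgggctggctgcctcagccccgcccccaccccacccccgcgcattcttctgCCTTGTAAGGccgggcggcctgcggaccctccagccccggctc
Filip1l: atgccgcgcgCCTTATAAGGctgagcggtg
Of the 21 contractile genes with a RefSeq stretch, Acta2 included, 2 held an exact box and 5 an exact box or one 1 letter off. Of 12 SRF and actin responsive genes, 6 held an exact box. A match is a description of letters, not a binding site.

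No gene was called between the 5 high and the 5 low libraries. In the quasi-likelihood test of edgeR, 0 of 15486 genes reached an adjusted p under 0.05, and the smallest adjusted p was 0.633. At an unadjusted p under 0.05, 674 genes (4.35%) were higher and 515 (3.33%) lower in the high-Acta2 libraries. CPM ranges of the groups did not overlap for 87 genes (0.562%) in the higher direction and for 51 (0.329%) in the lower. DESeq2 called 2 genes (0.0129%) and limma-voom 0, with 1123 (7.25%) and 1151 genes (7.43%) at an unadjusted p under 0.05. Without knockout 1 and wild type 7 the counts were 216 higher (1.38%) and 169 lower (1.08%). The values that follow are therefore descriptions of groups of genes, and for single genes the size and error are given with no call.

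Contractile genes other than Acta2 had mostly higher mean levels in the high-Acta2 libraries, by small amounts. Of 25 on the list, 21 were tested. The log2 difference was above 0 for 18 of them, beside 49.3% of all genes, with a median of 0.20 beside -0.0017 over all genes tested. At an unadjusted p under 0.05, 5 were higher and 0 lower, beside 4.35% and 3.33% of all genes. The CPM ranges of the groups did not overlap for 2, Myl9 and Flna, beside 0.562% of all genes in the higher direction. Without knockout 1 and wild type 7 the list median was 0.10, with 16 of 21 above 0.

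Myh11, the smooth muscle myosin heavy chain, was the contractile gene with the largest difference. It stood at 11.9, 14.8, 13.5, 10.9 and 8.94 CPM in the high libraries, in the order of their Acta2, and at 8.74, 9.88, 6.90, 6.18 and 6.42 CPM in the low ones. The groups overlapped only through knockout 3, whose 9.88 CPM exceeded the 8.94 CPM of knockout 7. The log2 difference was 0.64 (SE 0.15), and 0.57 without the 2 libraries rich in choroid plexus transcripts.

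Myl9, the regulatory light chain of smooth muscle myosin, stood at 18.5, 17.8, 17.0, 15.8 and 17.8 CPM in the high libraries. In the low libraries it stood at 15.6, 15.1, 13.4, 13.6 and 13.2 CPM. The ranges just missed each other, since the lowest high library held 15.8 CPM and the highest low one 15.6 CPM, and the log2 difference was 0.29 (SE 0.07). Flna, an actin cross-linker that many cell types express, stood at 170, 209, 201, 204 and 172 CPM against 154, 163, 165, 150 and 166 CPM, also without overlap and with a log2 difference of 0.26 (SE 0.06).

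Other defining smooth muscle transcripts did not separate the groups. Tagln, the actin-binding protein transgelin, ran from 8.38 to 13.5 CPM in the high libraries and from 8.00 to 11.7 CPM in the low ones, a log2 difference of 0.20 (SE 0.12). Des, the muscle intermediate filament desmin, was 2.17 against 2.00 CPM on average, and its difference of 0.12 turned to -0.12 without knockout 1 and wild type 7. Cnn1, the actin-binding protein calponin, was too low to test, at 0.142 to 0.433 CPM in the high group and 0.0444 to 0.242 CPM in the low group. Actg2 and Myocd were also too low to test, and Map3k7cl was not analysed here. Ppp1r14a, an inhibitor of myosin phosphatase, had the lowest value on the list, at -0.26 (SE 0.21). Of the list, Myl9 and Myh11 had the smallest p-values, and the ranking is named by Acta2 here rather than as a share of smooth muscle.

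**Figure D2:**
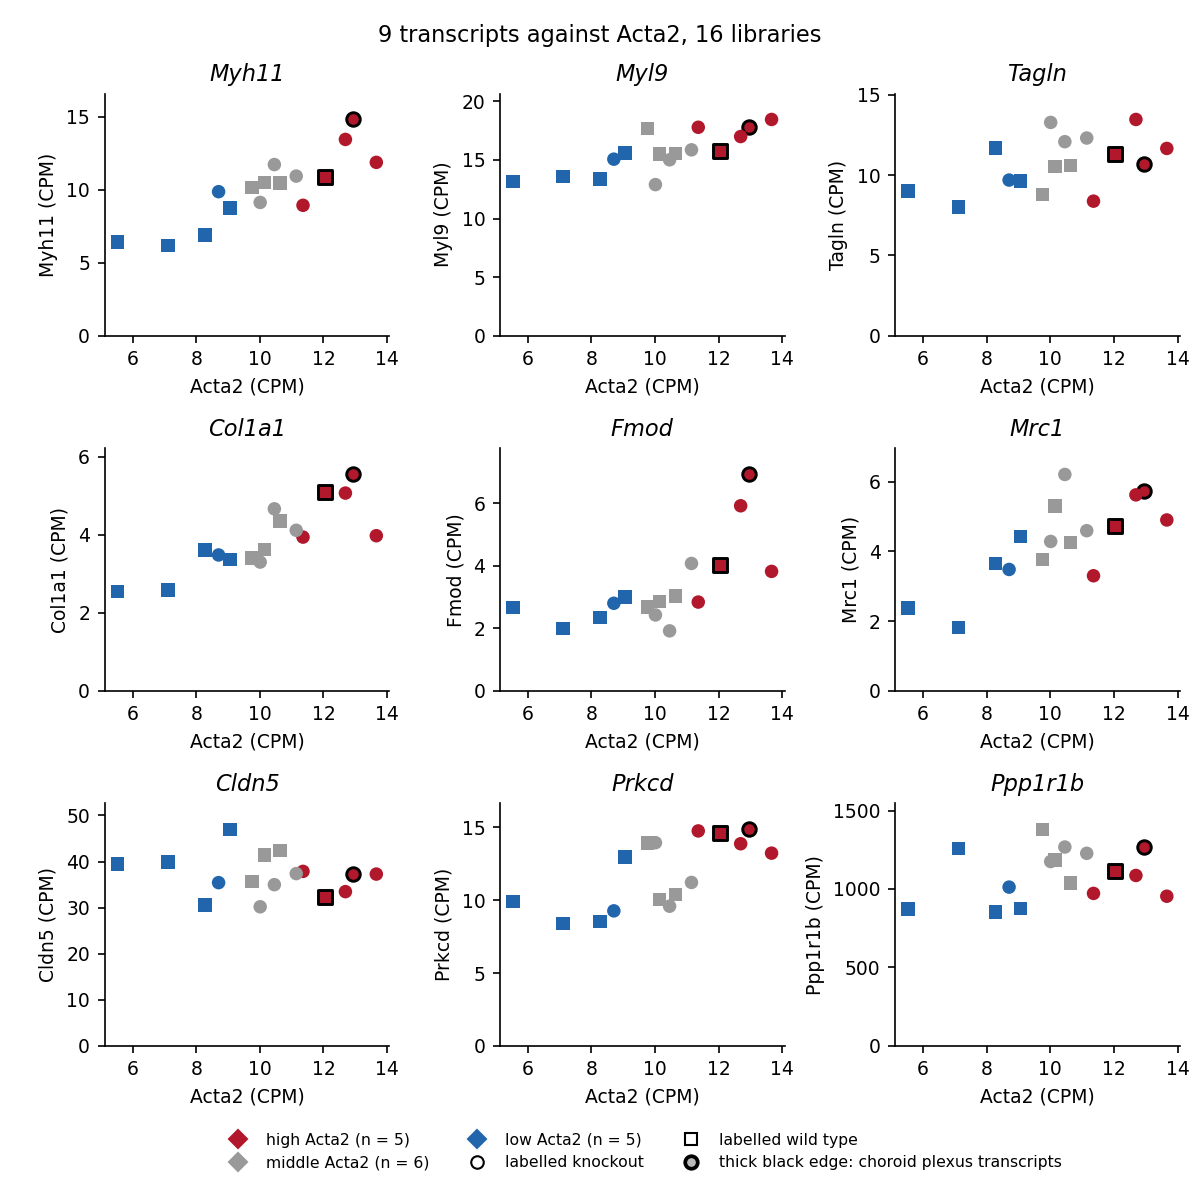
CPM of 9 transcripts against CPM of Acta2, with 1 point per library, colours for the high, middle and low groups and shapes for the labelled genotypes. Myh11 and Col1a1 are mostly higher in the high than in the low group, the highest Mrc1 value (6.21 CPM) is in the middle library knockout 2, Myl9 separates the high and low groups by a narrow margin, and Tagln, Cldn5 and Ppp1r1b overlap between them.

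When Acta2 was used as a number over all 16 libraries, 1 of 15902 genes was called (0.00629%), and it was Myh11. Myh11 rose by 0.93 on the log2 scale per doubling of Acta2 (SE 0.14, edgeR adjusted p = 0.0227). The adjusted p passed 0.05 when knockout 1 (0.0838), knockout 4 (0.0892), wild type 6 (0.0521), wild type 8 (0.16) or wild type 4 (0.16) was left out, and the slope stayed between 0.85 and 1.08 over the 16 omissions. With the labelled genotype as a covariate the slope was 0.86 (adjusted p = 0.23). Without knockout 1 and wild type 7 it was 0.87 (adjusted p = 0.151). Within the 8 libraries labelled knockout the slope of Myh11 was 0.80 (SE 0.31), and within the 8 labelled wild type it was 0.88 (SE 0.17). Across the contractile list, 9 of 21 slopes were above 0 at an unadjusted p under 0.05, and 0 were below, beside 4.73% and 4.18% of all genes, with a median slope of 0.28. Without knockout 1 and wild type 7, 5 of 21 were above 0 at that threshold, beside 2.02% of all genes. The median slope was then 0.12.

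Genes by which smooth muscle is signalled to were spread on both sides of 0. Of 23 tested, 14 had a log2 difference above 0 and the median was 0.06. At an unadjusted p under 0.05, 2 were higher and 1 lower, beside 4.35% and 3.33% of all genes. The 2 were Mrvi1, a target of cyclic GMP kinase in smooth muscle, at 0.31 (SE 0.11), and Notch3, the Notch receptor of mural cells, at 0.26 (SE 0.10). Pln, the phospholamban that restrains the calcium pump, was 1.81 against 1.23 CPM on average, at 0.55 (SE 0.26). The lower gene was Ptger3, a prostaglandin E2 receptor, at -0.42 (SE 0.19). Receptors that drive constriction, such as Ednra for endothelin at 0.06 and Adra1d for noradrenaline at -0.35, had errors of 0.09 and 0.22 and did not pass an unadjusted p of 0.05.

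Pericyte genes also lay mostly above 0. Of 15 tested, 14 had a log2 difference above 0, with a median of 0.18. At an unadjusted p under 0.05, 3 were higher and 0 lower, beside 4.35% and 3.33% of all genes. The median was 0.10 without knockout 1 and wild type 7, with 13 of 15 above 0. Along Acta2, 14 of 15 slopes were above 0 within the libraries labelled knockout and 8 of 15 within those labelled wild type. Anpep, the aminopeptidase that marks mural cells, stood at 4.36, 3.85, 3.66, 3.50 and 3.51 CPM in the high libraries and at 3.33, 3.07, 3.16, 2.76 and 2.06 CPM in the low ones. Those ranges did not overlap, and the log2 difference was 0.39 (SE 0.13). Higd1b, a pericyte marker, stood at 3.74, 4.05, 3.75, 3.68 and 3.90 CPM against 3.15, 3.67, 3.24, 2.67 and 3.31 CPM, so the groups were narrowly apart at 3.68 and 3.67 CPM. Ranges were apart in the higher direction for 0.562% of all genes. The most widely used pericyte markers overlapped, with Pdgfrb, the PDGF receptor of mural cells, at 0.18 (SE 0.09), Kcnj8, a potassium channel subunit, at 0.18 (SE 0.11) and Rgs5 at 0.11 (SE 0.09).

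Endothelial genes had list medians near 0. Of 21 capillary and general endothelial genes, 12 were above 0 and the median log2 difference was 0.01. At an unadjusted p under 0.05, 3 were higher and 0 lower, beside 4.35% and 3.33% of all genes. The 3 were the angiopoietin receptor Tek at 0.19 (SE 0.07), the VEGF receptor Flt1 at 0.18 (SE 0.08) and the adhesion molecule Pecam1 at 0.13 (SE 0.06). Cldn5, the tight junction claudin of the blood-brain barrier, stood at 37.3, 37.2, 33.5, 32.3 and 37.9 CPM in the high libraries. It stood at 47.0, 35.4, 30.6, 39.96 and 39.5 CPM in the low ones, so the high values lay inside the low range, and the log2 difference was -0.12 (SE 0.09). Of 11 arterial genes 5 were above 0, with a median of -0.01 and 2 higher and 0 lower at an unadjusted p under 0.05. Within that list the values went in different directions, with Mgp, an inhibitor of calcification that arterial endothelium and smooth muscle both express, at 0.39 (SE 0.10) and Gkn3, an arterial endothelial gene of the mouse brain, at -0.32 (SE 0.17). Of 7 venous genes 5 were above 0, with a median of 0.07.

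Apart from choroid plexus, the largest list median belonged to fibroblast and meningeal genes. Of 19 tested, 18 had a log2 difference above 0 and the median was 0.50. At an unadjusted p under 0.05, 11 were higher and 0 lower, beside 4.35% and 3.33% of all genes. Summed over the list, the high libraries held 343 to 526 CPM and the low ones 215 to 335 CPM, without overlap. Ptgds, the prostaglandin D2 synthase of the meninges, made up most of that sum, and oligodendrocytes express it too. Without knockout 1 and wild type 7 the median was 0.25, with 18 of 19 still above 0. Igf2, a growth factor of the meninges and choroid plexus, lost most of its difference, from 1.15 to 0.22, and Igfbp2, which binds it, went from 0.49 to -0.10.

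Col1a1, the fibrillar collagen chain of fibroblasts, stood at 3.97, 5.54, 5.07, 5.08 and 3.94 CPM in the high libraries and at 3.36, 3.48, 3.61, 2.58 and 2.54 CPM in the low ones. Every high library lay above every low one. The log2 difference was 0.59 (SE 0.14), and 0.46 without the choroid plexus libraries. Fmod, the collagen-binding proteoglycan fibromodulin, stood at 3.82, 6.92, 5.92, 4.04 and 2.84 CPM against 3.01, 2.80, 2.35, 2.00 and 2.66 CPM. Its groups overlapped through knockout 7, and the difference of 0.86 (SE 0.22) was carried most by knockout 1 and knockout 4.

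Ptgds stood at 221, 285, 199, 230 and 226 CPM in the high libraries and at 193, 194, 160, 166 and 107 CPM in the low ones, a difference of 0.50 (SE 0.14) with no overlap. Further collagens and proteoglycans of fibroblasts were at 0.47 (Col1a2), 0.52 (Col3a1), 0.48 (Dcn) and 0.82 (Lum). Lama1, the laminin chain of the pial basement membrane, was at 0.55 (SE 0.23), and Foxc1, a transcription factor needed for meningeal development, at 0.33 (SE 0.14). Along Acta2 in all 16 libraries the median slope was 0.73. At an unadjusted p under 0.05, 15 of the 19 had positive slopes, beside 4.73% of all genes. Without the choroid plexus libraries it was 13 of 19, with none below 0 at that threshold, beside 2.02% above and 2.28% below over all genes. Within the libraries labelled knockout all 19 slopes were above 0, and within those labelled wild type 17 of 19 were.

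Matrix genes of the vessel wall and basement membrane were higher by less. Of 23 tested, 21 were above 0, with a median log2 difference of 0.13. At an unadjusted p under 0.05, 5 were higher, beside 4.35% of all genes. Eln, the elastin of arterial walls, was at 0.34 (SE 0.11), Lama5, a laminin chain of vascular basement membrane, at 0.31 (SE 0.12) and Hspg2, the proteoglycan perlecan, at 0.34 (SE 0.15). The median was 0.04 without knockout 1 and wild type 7, with 14 of 23 above 0. Col4a1 and Col4a2, the type IV collagen chains of all basement membranes, were at 0.05 (SE 0.09) and 0.09 (SE 0.08).

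Perivascular macrophage genes lay above 0 in all 5 tested cases, with a median of 0.24, and 3 more on the list were too low to test. Mrc1, the mannose receptor of these macrophages, stood at 4.90, 5.74, 5.62, 4.72 and 3.30 CPM in the high libraries and at 4.42, 3.48, 3.65, 1.82 and 2.38 CPM in the low ones. The groups overlapped through knockout 7, and the log2 difference was 0.61 (SE 0.21). Cd163, a haemoglobin scavenger receptor, was at 0.24 (SE 0.09). Microglial genes had a median of 0.03 with 0 at an unadjusted p under 0.05.

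SRF and actin responsive genes did not shift together. Of 16 tested, 10 were above 0 with a median of 0.02. Actn1, an actin cross-linker, was at 0.24 (SE 0.10) and Mkl2, an SRF cofactor, at 0.14 (SE 0.06), while Fhl2, a LIM domain cofactor, was at -0.31 (SE 0.13). Srf itself was at 0.06 (SE 0.05).

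**Figure D3:**
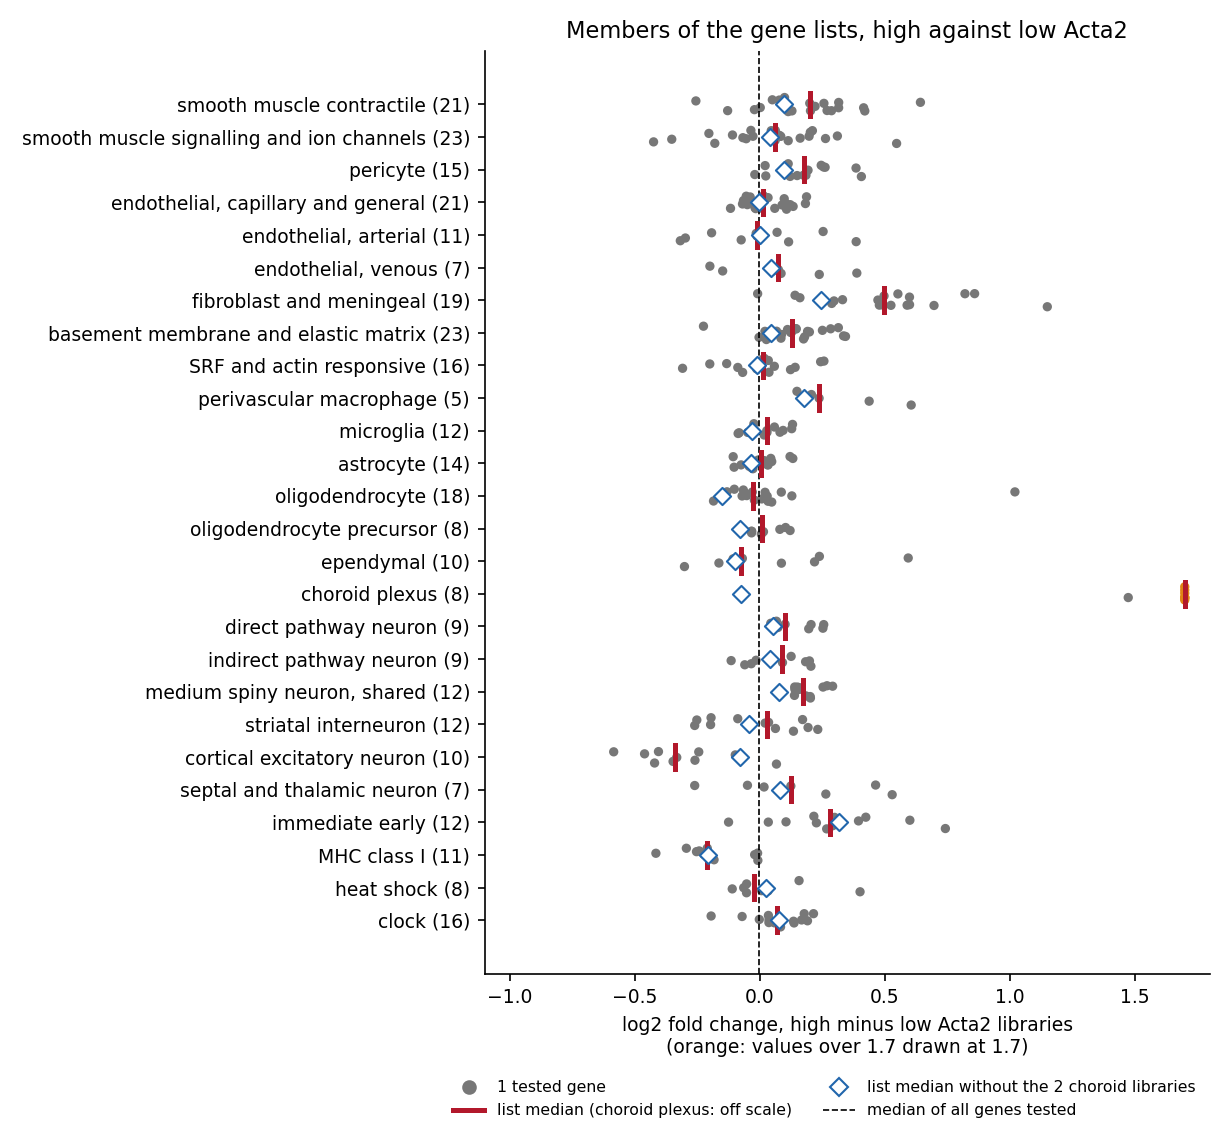
Log2 difference between high-Acta2 and low-Acta2 libraries for every tested member of 26 gene lists, with the list medians as red bars, the medians without knockout 1 and wild type 7 as open diamonds and the number of tested genes in parentheses. Fibroblast and meningeal genes lie farthest to the right apart from the choroid plexus list, whose median of 3.62 is drawn at the edge, and MHC class I and cortical genes lie to the left.

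Some neuronal lists lay mostly on 1 side of 0 and others did not. Striatal interneuron genes were above 0 in 7 of 12 cases (median 0.03) and indirect pathway genes in 5 of 9 (median 0.09). Direct pathway genes were above 0 in 9 of 9 cases (median 0.10). Without knockout 1 and wild type 7 it was 7 of 9 (median 0.05). Their slopes along Acta2 were above 0 for 3 of 9 within the libraries labelled knockout and 8 of 9 within those labelled wild type. All 12 shared medium spiny neuron genes were above 0, with a median log2 difference of 0.17. At an unadjusted p under 0.05, 7 were higher, beside 4.35% of all genes. Rgs9, a striatal regulator of G protein signalling, was at 0.27 (SE 0.10), and Ppp1r1b, the dopamine signalling protein DARPP-32, at 0.14. Cortical excitatory neuron genes went the other way in 9 of 10 cases, with a median of -0.34. At an unadjusted p under 0.05, 4 were lower, beside 3.33% of all genes. Emx1, a transcription factor of the dorsal forebrain, stood at 4.94, 2.44, 4.51, 3.57 and 7.77 CPM in the high libraries and at 7.18, 6.32, 6.90, 7.24 and 7.18 CPM in the low ones. Knockout 7 was the only high library above any low one. The medians of the shared medium spiny neuron genes and the cortical genes were 0.08 and -0.08 without knockout 1 and wild type 7. The slopes of the medium spiny neuron genes along Acta2 went in opposite directions by label, with 1 of 12 above 0 and a median of -0.12 within the libraries labelled knockout, and 12 of 12 and a median of 0.36 within those labelled wild type. That difference between labels was not tested. Of the 10 cortical genes, 2 slopes were above 0 within the labelled knockouts and 0 within the labelled wild types. Whether the tissue taken in the punch bears on the vascular values was not tested.

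Among the 5 genes with the smallest p in the higher direction, Myl9, described above, was the 1 contractile gene. A330023F24Rik, a long non-coding host transcript, stood at 107, 114, 113, 110 and 106 CPM in the high libraries and at 91.8, 97.9, 96.1, 88.0 and 90.3 CPM in the low ones. The ranges were apart, and the log2 difference was 0.24 (SE 0.04, edgeR adjusted p = 0.633, DESeq2 adjusted p = 0.0091). Prkcd, a protein kinase C that marks thalamic neurons, stood at 13.2, 14.9, 13.9, 14.6 and 14.8 CPM against 13.0, 9.27, 8.56, 8.40 and 9.93 CPM. Its difference was 0.53 (SE 0.10, edgeR adjusted p = 0.633, DESeq2 adjusted p = 0.0140), and wild type 2 stood close to the high group. Inmt, an indolethylamine methyltransferase, was at 1.13 (SE 0.26) and Aebp1, a matrix protein of fibroblasts and smooth muscle, at 0.52 (SE 0.12). In the lower direction stood Dnajc30, a mitochondrial chaperone, at -0.25 (SE 0.05), and Irgm1, an interferon-induced GTPase, at -0.36 (SE 0.08). Ly6g6e was at -0.82 (SE 0.20) and Ndufaf2, an assembly factor of respiratory complex I, at -0.26 (SE 0.07).

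The 6 middle libraries, which the contrast did not use, gave a separate look at direction over a narrow range. Acta2 spanned only 1.14-fold there, with every pair of Poisson intervals overlapping, and 0 of 15693 genes were called by edgeR, with 631 above (4.02%) and 637 below 0 (4.06%) at an unadjusted p under 0.05. Of the 674 genes higher in the contrast, 669 were fitted and 46.8% had a slope above 0, against 51.4% of all genes. Of the 515 lower genes, 513 were fitted and 38.2% had a slope below 0, against 48.6% of all genes. Neither set showed its own direction more often than all genes did.

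By list, the fibroblast and meningeal genes had 16 of 19 slopes above 0 in the middle libraries, basement membrane genes 20 of 23, pericyte genes 13 of 15 and perivascular macrophage genes 4 of 5. Capillary endothelial genes had 19 of 21 above 0 there, against 12 of 21 in the contrast. Slopes above 0 were not particular to vascular lists. Microglial genes had 12 of 12 above 0 in the middle libraries, oligodendrocyte precursor genes 8 of 8, ependymal genes 9 of 10 and oligodendrocyte genes 15 of 18. In the contrast those lists had 8 of 12, 5 of 8, 4 of 10 and 8 of 18 above 0. Heat shock genes had 0 of 8 above 0 in the middle libraries and clock genes 5 of 16. Contractile genes had 11 of 21, close to the share of all genes. The slope of Myh11 was 0.74 (SE 0.83) and that of Myl9 -0.32 (SE 0.89), errors too wide to give a direction. The shared medium spiny neuron genes had 0 of 12 above 0, opposite to the contrast.

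**Figure D4:**
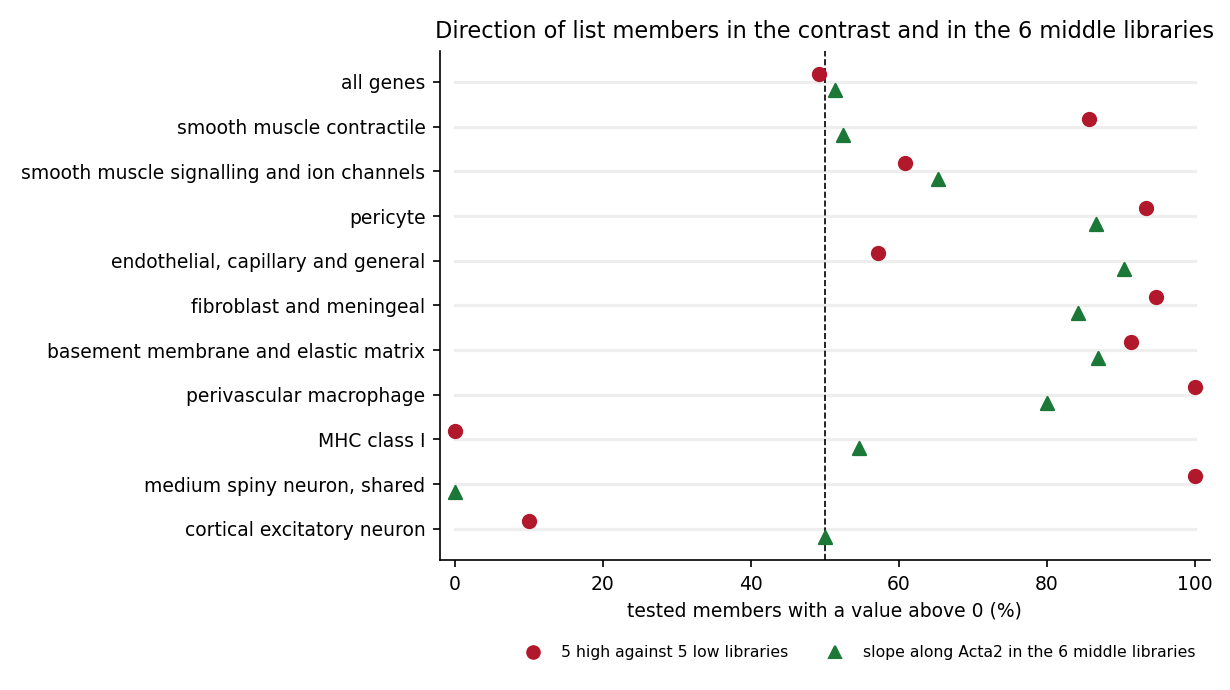
Share of tested list members with a value above 0 in the contrast of 5 high against 5 low libraries (red circles) and in the slopes along Acta2 in the 6 unused middle libraries (green triangles), in percent. The smooth muscle, pericyte, capillary endothelial, fibroblast, basement membrane and perivascular macrophage lists lie to the right of the dashed line at 50% in both. Contractile genes do so narrowly in the middle libraries (11 of 21), and medium spiny neuron and MHC class I genes change sides. Of the lists not drawn, microglial genes had 12 of 12 slopes above 0 in the middle libraries and heat shock genes 0 of 8.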

How the data were processed

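Poly(A) RNA was sequenced as single-end reads of 50 bases from stranded TruSeq libraries, per the labels' protocols, over 4 lanes. Each deposited table gives whole-number counts of reads for every gene in 1 lane. Tools named in the submitters' processing notes, with no role or order, are edgeR 2.14, HTSeq 0.6.1p1, TopHat2 2.0.0 and FastQC 0.10.1, on build mm10. No source used here states the annotation or whether strand was used in counting, so a count may include reads antisense to the gene. Reads ambiguous between overlapping genes were tallied in a summary row, not in the gene counts. Lane counts of each mouse were summed to 1 library, without the 5 summary rows. Totals ran from 22088005 to 30238947 gene reads. The labels differ on the punch, with 2.5 mm in one text and 3 mm in another.

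CPM is the count over the gene-read total. The 5 libraries with the highest and the 5 with the lowest Acta2 CPM were compared for all other genes with the quasi-likelihood test of edgeR 4.0.16, two-sided, run under R 4.3.3. It used TMM scaling, filterByExpr, no covariate and Benjamini-Hochberg adjustment over all genes tested. The same test was run along log2 Acta2 CPM in 16 libraries, in 14, in the 6 middle libraries and within each label. It was tested on simulated data. Gene positions came from GENCODE M21 and sequences from RefSeq (GRCm38.p6). Mouse numbers did not pair the samples, with correlations of deviations from -0.29 to 0.04.

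Groups, members and the 28 gene lists were chosen with earlier results of these data known. Named genes were Acta2, the 5 smallest p-values in each direction, the 4 smallest of each vascular and SRF list, the 2 smallest of every other list, and 15 set by name. Other genes in the text are list members chosen after their values were seen. Alternatives were other scalings, filters, tools (DESeq2 1.42.0, limma-voom 3.58.1), group sizes, covariates, a replicate block, single flow cells and libraries left out.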

Additional observations from a re-analysis of the deposited data

Results flagged for a closer look

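Of 180 sets of 5 CPM values, 7 held a library whose gap to its nearest neighbour was above the critical value of Dixon's test, and chance flags about 1 in 20. Csnk1e in the high group was 45.0 CPM in knockout 7 and 71.7 to 79.6 in the others. Vtn, a pericyte transcript, was 90.1 CPM in knockout 1 against 68.7 to 74.9 in the other high libraries. In the low group, wild type 8 stood apart for Cnn1 at 0.0444 CPM (others 0.189 to 0.242), for Fhl2 at 19.0 CPM (others 27.0 to 29.5) and for the oligodendrocyte lineage gene Olig1 at 183 CPM (others 115 to 124). Egr2, an activity-regulated gene, was 7.64 CPM in wild type 2 against 2.06 to 3.60, and Folr1, a choroid plexus gene, was 1.02 CPM in knockout 3 against 0.311 to 0.487.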

How the results depend on the processing

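Between the high and low libraries, edgeR called 0 genes and DESeq2 called 2. At an unadjusted p under 0.05, top 4 against bottom 4 gave 1053 higher and 1101 lower, leaving out knockout 1 and wild type 7 gave 216 and 169, and top 6 and top 8 gave 330 and 246 lower. Leaving out 1 library gave 0 to 1 called (Prkcd without wild type 2, adjusted p = 0.0134), 329 (without knockout 1) to 1128 (without knockout 7) higher and 239 (without knockout 1) to 1177 (without knockout 7) lower. Without wild type 6 it was 436 higher and without wild type 7 306 lower.

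Along Acta2, calls were 0 with the replicate block by mouse number (Myh11 slope 0.95, adjusted p = 0.106), 0 with labelled genotype, and 0 without knockout 1 and wild type 7 (323 higher and 364 lower at an unadjusted p under 0.05). Leaving out 1 library gave 0 to 4 called (4 without knockout 5), 448 (without knockout 1) to 1090 higher and 466 to 1146 (without knockout 5) lower, with 1034 lower without knockout 7.

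Of 1508 values of the 89 named genes under alternatives, 1483 kept their direction. Without knockout 1 and wild type 7, Kl (-0.17), Enpp2 (-0.14), Slc4a4 (-0.0041), Lhfpl3 (-0.013), Des (-0.12) and Csnk1e (-0.0055) turned below 0. With 14 libraries reranked, an alternative chosen after seeing the data, Enpp2 (-0.066), Des (-0.057), Csnk1e (-0.26), Xist (-0.70) and Uty (0.27) turned. Top 4 turned Alas2 (0.14), top 6 Hspa5 (-0.014) and Csnk1e (-0.12), and top 8 Per2 (-0.023), Hspa5 (-0.12), Xist (-0.43) and Uty (0.12). Ranking on 1 flow cell turned Des (-0.11), Csnk1e (-0.14), Xist (-0.71) and Uty (0.33). Limma-voom (-0.52) and a sex covariate (-0.40) turned Xist, and the genotype covariate Csnk1e (-0.017). Leaving out 1 library, Mbp ran from -0.18 to 0.020, Des from -0.015 to 0.23, Alas2 from -0.14 to 0.071, Csnk1e from -0.089 to 0.16, Xist from -0.43 to 0.96 and Uty from -0.45 to 0.19. The causes were not tested.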

Other observations

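MHC class I genes, which encode the molecules that present peptides at the cell surface, lay below 0 in all 11 tested cases in the high-Acta2 libraries. The median log2 difference was -0.21, and 4 were lower at an unadjusted p under 0.05 beside 3.33% of all genes. B2m, the shared light chain, stood at 71.8, 68.5, 73.5, 72.7 and 64.6 CPM in the high libraries and at 75.7, 77.8, 85.3, 86.8 and 82.8 CPM in the low ones, without overlap (log2 -0.22, SE 0.05). H2-K1 and H2-D1, both heavy chains, also had ranges apart, at -0.29 and -0.25. Ranges were apart in the lower direction for 0.329% of all genes. The median was -0.21 without knockout 1 and wild type 7. Along Acta2 in all 16 libraries the median slope was -0.23, and 1 of 11 was lower at an unadjusted p under 0.05, beside 4.18% of all genes. In the 6 middle libraries 6 of 11 slopes along Acta2 were above 0. The middle library wild type 1 held the highest H2-K1 and B2m of the 16 libraries, at 47.5 and 103 CPM. Reads that fit several near-identical H2 genes can be missing from the counts, since reads without a unique alignment went to a summary row.

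Immediate early genes, which neuronal activity induces, were above 0 in 11 of 12 cases, with a median of 0.28, but only Arc (0.60) passed an unadjusted p under 0.05. Clock genes were above 0 in 13 of 16 cases with a median of 0.07, and only Bhlhe41 (0.19) did. Of all genes, 4.35% were higher at that threshold.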
